A study of Mus musculus with 18 samples.

Results

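Malat1, Neat1, Meg3, H19 and Gas5 are long noncoding RNAs, and they were followed here on 18 arrays of mouse palate at embryonic day 15.5. A probe set was taken for one of them when the platform annotation gave it that symbol and no other, which found 24 of 45037 probe sets: 7 for Malat1, 2 for Neat1, 11 for Meg3, 4 for Gas5 and 0 for H19. The 5 genes were chosen on measured values of these same arrays, with genotype and region differences in view, so the differences of their own probe sets between groups are described here, without a p-value or a call. The gene names could be checked only against the annotation, because the arrays hold no second assay of these RNAs.

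The study profiled 3 groups of 6 arrays each, all of C57BL/6J mice with sex not determined. Mutant posterior palate came from K14-Cre;Tgfbr2 fl/fl embryos, control posterior palate from Tgfbr2 fl/fl embryos, and control anterior palate also from Tgfbr2 fl/fl embryos, so every group carried the floxed receptor allele and the controls lacked only the Cre. K14-Cre is a recombinase under a keratin promoter that is active in epithelium, so the receptor is expected to be lost there and kept in mesenchyme and muscle, which make up much of the tissue. The stated question was how lost TGF-beta signalling in palatal epithelium affects its exchange with muscle fibres. The series text states 5 samples for each group, whereas 6 are labelled and were used, and mutants did not share litters with controls. The labels leave unsaid whether 1 embryo or several went into a sample and which samples share an embryo, so errors measure the spread between these samples.

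These RNAs work without being translated. Malat1 and Neat1 are kept in the nucleus: Malat1 gathers in nuclear speckles, where splicing factors of the SR family are stored, and Neat1 is the scaffold on which paraspeckles form around proteins such as Nono and Sfpq. Meg3 and H19 are imprinted genes expressed from the maternal chromosome, Meg3 in a cluster with Rian, Mirg and the paternally expressed Dlk1, and H19 beside Igf2. Gas5 is a spliced transcript whose introns carry small nucleolar RNAs, and its 5' end has the oligopyrimidine (5' TOP) tract that also marks messages for ribosomal proteins and translation factors. Its spliced RNA is degraded when it is translated, so growth arrest raises its level. In the RefSeq order of genes on chromosome 19, Malat1 and Neat1 are neighbours with only Mascrna between them.

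The start regions of Malat1, Meg3 and Gas5 are shown, as windows were matched for these 3 of the 5 genes. They come from the RefSeq promoter table (build GRCm38.p6), which runs from 250 bases before a transcript's start to 50 bases from it. Capitals mark matches, searched on both strands, to TGACGTCA (the cAMP response element), to the TATA-box letters TATAAA or else TATATA, to the CCAAT box and to the GC-box letters GGGCGG.
Malat1, chr19:5802623-5802922, minus strand: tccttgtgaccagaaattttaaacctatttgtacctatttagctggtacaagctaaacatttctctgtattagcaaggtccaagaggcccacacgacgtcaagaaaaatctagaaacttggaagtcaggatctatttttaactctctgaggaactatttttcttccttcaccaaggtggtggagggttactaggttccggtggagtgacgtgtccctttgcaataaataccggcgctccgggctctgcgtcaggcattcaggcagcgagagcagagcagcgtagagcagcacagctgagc
Meg3, chr12:109540746-109541045, plus strand: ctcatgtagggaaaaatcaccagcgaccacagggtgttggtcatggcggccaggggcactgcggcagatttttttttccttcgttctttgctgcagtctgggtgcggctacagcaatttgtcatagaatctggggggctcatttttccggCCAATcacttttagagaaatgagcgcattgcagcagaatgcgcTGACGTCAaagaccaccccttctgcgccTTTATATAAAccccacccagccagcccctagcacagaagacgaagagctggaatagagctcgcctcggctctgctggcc
Gas5, chr1:161034916-161035215, plus strand: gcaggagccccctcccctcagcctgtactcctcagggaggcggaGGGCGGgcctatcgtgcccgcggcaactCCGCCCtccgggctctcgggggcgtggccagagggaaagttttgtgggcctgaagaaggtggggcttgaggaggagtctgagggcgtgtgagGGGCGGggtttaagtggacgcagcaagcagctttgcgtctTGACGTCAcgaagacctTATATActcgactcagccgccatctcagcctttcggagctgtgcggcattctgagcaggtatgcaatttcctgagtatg
The Meg3 window held TGACGTCA 57 bases and CCAAT 100 bases before the start, and overlapping matches to both sets of TATA-box letters that began 29 to 25 bases before it. The Gas5 window held TGACGTCA 46 bases and TATATA 29 bases before the start, and GGGCGG 3 times. None of the 5 motifs was in the Malat1 window as printed. Among 32851 windows of this length, 1.79% held TGACGTCA, 13.6% held TATAAA, 5.67% held TATATA, 37.4% held CCAAT and 35.7% held GGGCGG. Of a second start, Gas5 had a window at chr1:161034351-161034650 with 5 matches to GGGCGG and no match to the other 4 motifs, and Meg3 one at chr12:109545148-109545447 with no match at all. A match describes the letters and shows no binding.

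All values are RMA levels on a log2 scale, so a difference of 1 is a doubling of signal. Array medians lay between 5.87 and 5.90 on mutant arrays 1 to 3 and between 5.74 and 5.80 on all other arrays. Labelling spike-ins, bacterial RNAs added before labelling, averaged 7.90 on mutant posterior arrays, against 10.28 on the posterior and 10.20 on the anterior control arrays, and no mutant array reached a control array (mutant against control posterior, adjusted p = 0.0202, exact permutation test). No set of arrays holds both genotypes, so genotype and this gap cannot be told apart. Arrays numbered 1 to 3 and 4 to 6 also differed: among controls the labelling spike-ins lay between 9.44 and 9.70 on arrays 1 to 3 and between 10.60 and 11.40 on arrays 4 to 6. The brightest probe set of Tgfbr2 read 11.01 ± 0.27 in mutant and 10.46 ± 0.20 in control posterior palate (SD, n = 6 each), a difference of 0.55 (SE 0.13, adjusted p = 0.00972, limma), which does not show the loss that the label names. Nothing given here says whether that probe set lies in the deleted part. Defining markers of epithelium (11 of 11), palatal mesenchyme (8 of 8) and skeletal muscle (10 of 10) all had means over the 18 arrays above every array median. In control anterior palate alone, muscle markers averaged from 4.98 (Myh8) to 8.54 (Acta1), and Myh8 and Ttn (5.32) lay below every array median. Mutant array 1 stood apart with the lowest epithelial markers, at a mean level of 9.44 where the other mutant arrays reached 11.38 or more. Differences of the brightest probe sets and medians that rest on it are given without it too, whereas relations within the mutant arrays include it. Between mutant and control posterior palate, markers called higher were 1 of 10 of skeletal muscle, 1 of 4 of bone and 1 of 4 of neurons and glia, and markers called lower were 2 of 5 of red cells, 1 of 6 of macrophages and 1 of 5 of dividing cells. Of neurons and glia, Sox10 was the higher one, while Stmn2, Tubb3 and Elavl4 averaged lower in mutants. The mean of that list ran from 5.51 to 10.36 on mutant and from 8.08 to 8.96 on control posterior arrays. None of the mean levels of the 10 marker lists passed for genotype (smallest adjusted p = 0.131, exact permutation test), and their part in any difference below was not tested.

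Of the 4 RNAs with a probe set, Malat1 differed most between mutants and controls. Its brightest probe set, 1418189_s_at, had a lowest, median and highest value of 11.31, 11.86 and 13.32 in mutant posterior palate, against 9.80, 10.34 and 10.69 in control posterior palate, and 9.33, 10.47 and 10.87 in control anterior palate. The lowest mutant array stood above the highest control array of either region, while the 2 control groups overlapped throughout. The means were 11.96 ± 0.72, 10.29 ± 0.40 and 10.34 ± 0.55 (SD, n = 6 each). Mutant minus control posterior was 1.68 (SE 0.30), a fold of 3.20, and control posterior minus control anterior was -0.05 (SE 0.30). Because the tissue was not separated into cell types, more cells of a type that expresses Malat1 and more Malat1 per cell cannot be told apart, and this holds for every RNA below.

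**Figure D1:**
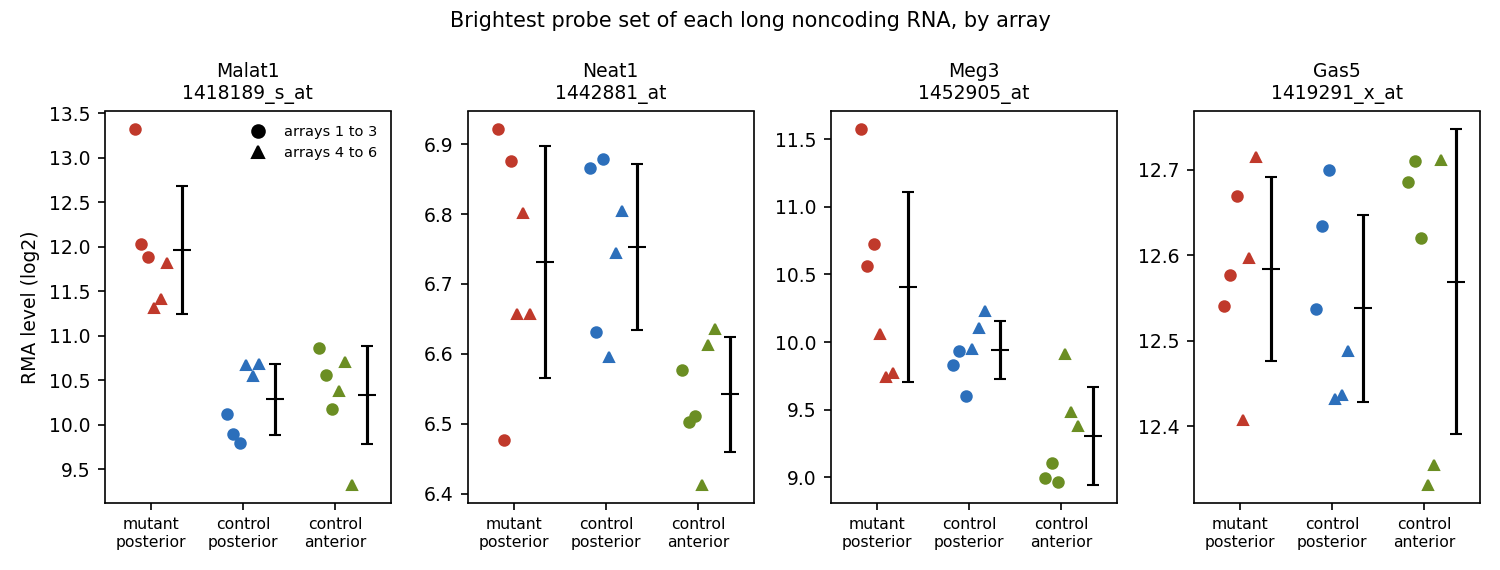
RMA level (log2) of the brightest probe set of Malat1, Neat1, Meg3 and Gas5 in each array, with circles for arrays 1 to 3, triangles for arrays 4 to 6, and bars for the mean ± SD of 6 arrays; the vertical scales differ between panels. The 6 mutant Malat1 values lie at 11.31 or above and no control array exceeds 10.87, whereas the Gas5 groups lie on top of each other.

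The other Malat1 probe sets split by brightness. Probe set 1418188_a_at read from 10.20 to 12.28 in mutant and from 8.88 to 9.88 in control posterior palate, again without overlap, and differed by 1.41 (SE 0.32). Probe sets 1438403_s_at and 1452378_at differed by 0.95 (SE 0.27) and 0.96 (SE 0.31), with 5 and 3 of 6 mutant arrays above every control posterior array. The dimmer 1427285_s_at and 1429060_at differed by 0.52 and 0.50, and all 6 mutant arrays were above the control posterior mean for both. Only 1436202_at, the dimmest, pointed the other way: it read 5.60, 6.01 and 7.10 (lowest, median, highest) in mutant and 5.99, 6.60 and 6.87 in control posterior palate, a difference of -0.31 (SE 0.24). Across all 18 arrays its deviations from the group means correlated with those of the brightest probe set at r = 0.526, the lowest of the 6 Malat1 partners, whose others ranged up to 0.956. The files do not say which stretch of Malat1 each probe set detects.

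The size of the Malat1 difference depended on the arrays. Among arrays 1 to 3 the means were 12.4 in mutant and 9.94 in control posterior palate, a difference of 2.47. Among arrays 4 to 6 they were 11.5 in mutant and 10.6 in control posterior palate, a difference of 0.88. The brightest probe set thus read higher in mutants in both sets of array numbers, with unequal size. Mutant and control arrays of the same numbers are matched here by label only, so neither difference lies within a shared set. Without mutant array 1 the difference over all arrays was 1.40. For 1436202_at the 2 sets opposed each other, at 0.42 for arrays 1 to 3 and -1.04 for arrays 4 to 6. The regional difference of the brightest probe set also opposed, at -0.59 and 0.50, around an overall value near 0. Malat1 varied widely within groups too: its SD ranked above 95.4% of all probe sets in mutant posterior, 97.6% in control posterior and 98.3% in control anterior palate.

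Neat1, the neighbour of Malat1, gave 2 probe sets that did not move together. The brightest, 1442881_at, read 6.48, 6.73 and 6.92 (lowest, median, highest) in mutant posterior, 6.60, 6.77 and 6.88 in control posterior and 6.41, 6.54 and 6.64 in control anterior palate. Mutant and control posterior arrays overlapped throughout (difference -0.02, SE 0.08), and 4 of 6 control posterior arrays stood above every control anterior array (difference 0.21, SE 0.08). The dimmer 1428083_at read 5.50, 5.73 and 6.49 in mutant posterior, 5.06, 5.28 and 5.63 in control posterior and 5.11, 5.41 and 5.53 in control anterior palate. For it, 5 of 6 mutant arrays stood above every control posterior array (difference 0.56, SE 0.15), and the regions overlapped (difference -0.06, SE 0.15). Deviations of the 2 probe sets correlated at r = 0.329 over 18 arrays. Both lie near the middle of the array's range of signal, and without detection calls their distance from background is unknown.

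Meg3 read higher in posterior than in anterior control palate, with partial overlap. Its brightest probe set, 1452905_at, had a lowest, median and highest value of 9.74, 10.31 and 11.57 in mutant posterior palate, against 9.60, 9.94 and 10.23 in control posterior palate, and 8.97, 9.24 and 9.91 in control anterior palate. All 6 control posterior arrays were above the control anterior mean and 4 of 6 above every control anterior array. Control posterior minus control anterior was 0.63 (SE 0.25), a fold of 1.55. All 11 Meg3 probe sets had a positive regional difference, from 0.08 to 0.69, with a median of 0.33 against 0.01 for all probe sets, of which 52.6% were positive. Probe set 1439380_x_at separated the regions fully, with 8.97 to 9.51 in control posterior and 8.54 to 8.93 in control anterior palate. Both array sets gave the same direction for the brightest probe set, 0.77 on arrays 1 to 3 and 0.50 on arrays 4 to 6.

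The genotype difference of Meg3 rested on some of the mutant arrays. Mutant minus control posterior was 0.47 (SE 0.25) for the brightest probe set, but it was 1.17 on arrays 1 to 3 and -0.23 on arrays 4 to 6. Without mutant array 1, which held the highest value, it was 0.23, and it was 0.06 when arrays were weighted by their quality. Of the 11 probe sets, 10 had a positive difference, the range was -0.01 to 0.69 and the median 0.43, against 0.05 for all probe sets, of which 61.9% were positive. Without mutant array 1 the median was 0.23, the range -0.08 to 0.44, and 9 were positive. Several measures moved with this split of the mutant arrays. Hybridisation spike-ins read between 11.38 and 11.91 on mutant arrays 1 to 3 and between 10.67 and 10.78 on mutant arrays 4 to 6, against 10.53 to 11.13 on the control arrays. Palatal mesenchyme markers averaged 8.01 to 8.46 on mutant arrays 1 to 3 and 8.87 to 9.25 on mutant arrays 4 to 6. Markers of dividing cells averaged 10.60 to 10.76 and 10.82 to 10.87. The Gapdh 3' minus 5' difference, a measure of RNA quality, was 0.07 to 0.30 and -0.08 to -0.04. The part of these measures in the Meg3 difference was not tested. The positive sign of 1436057_at (0.01) turned when arrays were centred on their medians. Meg3 probe sets followed their brightest one over 18 arrays, with r from 0.546 to 0.942.

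**Figure D2:**
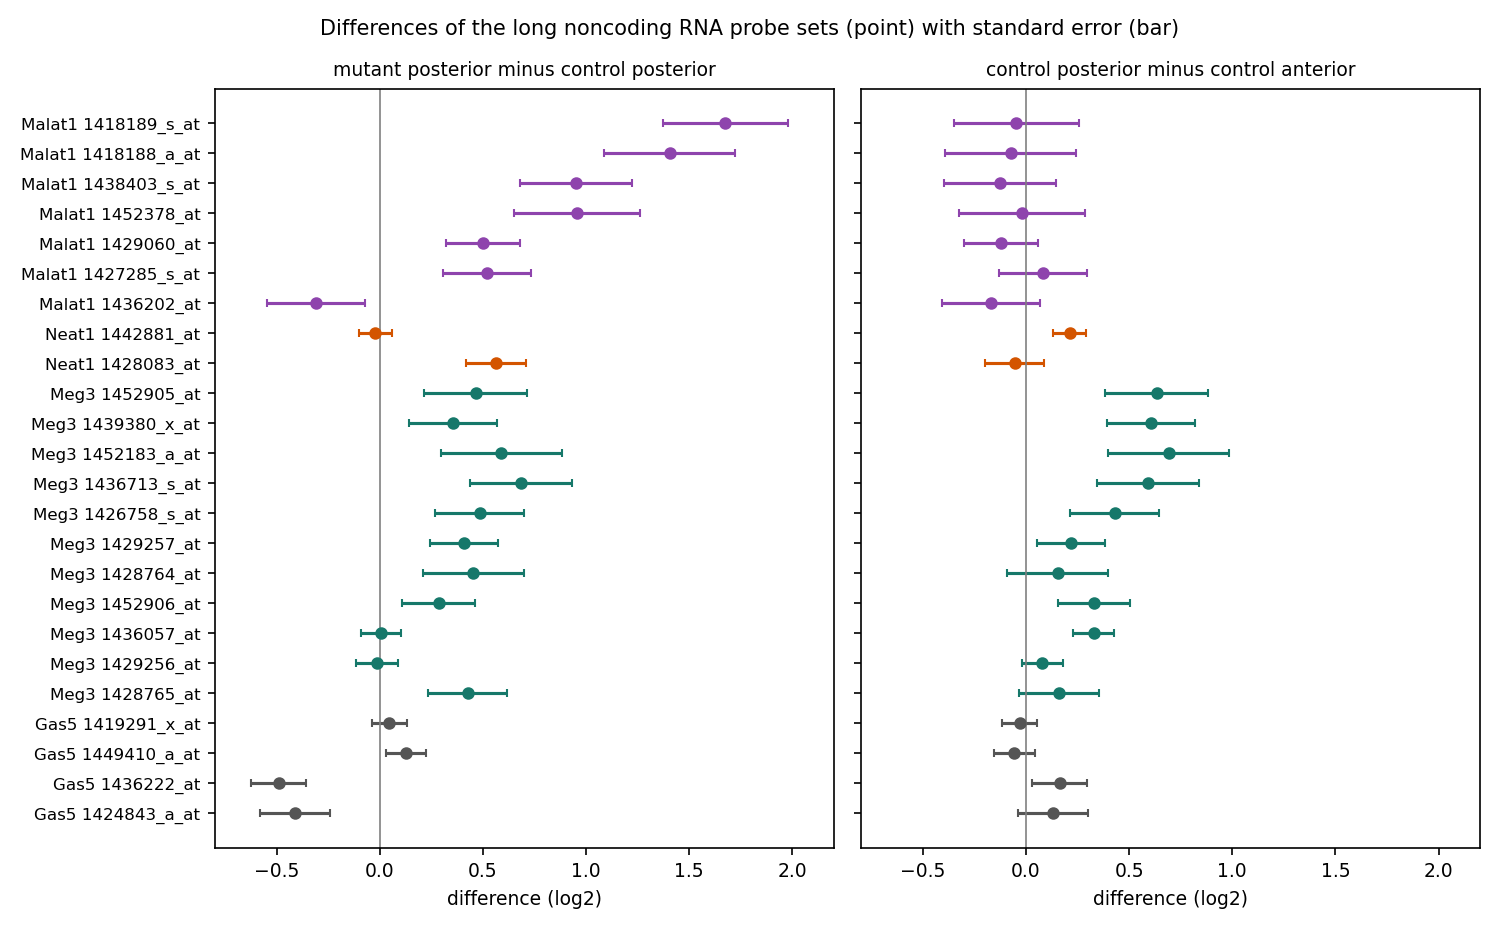
Difference (log2) of each of the 24 probe sets for mutant posterior minus control posterior (left) and control posterior minus control anterior (right), with points for the difference of means of 6 arrays and bars for 1 standard error from the fit over 18 arrays. Malat1 reaches 1.68 on the left and stays near 0 on the right, while all 11 Meg3 points lie right of 0 in the regional panel.

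Gas5 had overlapping levels in the 3 groups on its bright probe sets, which ranked above 98.7% of all probe sets or more. Probe set 1419291_x_at read 12.41, 12.59 and 12.71 (lowest, median, highest) in mutant posterior, 12.43, 12.51 and 12.70 in control posterior and 12.33, 12.65 and 12.71 in control anterior palate. The 3 groups overlapped, mutant minus control posterior was 0.05 (SE 0.08), with a sign that turned to -0.01 when arrays were centred on their medians, and control posterior minus control anterior was -0.03 (SE 0.08). Probe set 1449410_a_at gave 0.13 (SE 0.10) for genotype and -0.06 (SE 0.10) for region, and its deviations followed the brightest at r = 0.904. The dimmer 1436222_at and 1424843_a_at did not follow it, at r = 0.123 and 0.035. Probe set 1436222_at read 6.73, 6.96 and 7.23 in mutant and 7.07, 7.43 and 7.92 in control posterior palate, so the groups overlapped only between 7.07 and 7.23, and the difference was -0.49 (SE 0.13). All 6 mutant arrays were below the control posterior mean for it and for 1424843_a_at, which differed by -0.41 (SE 0.17). Whether the dimmer probe sets detect introns or other transcript forms is not given in the files.

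The nuclear-retained, imprinted and spliced RNAs are set side by side here as 2, 1 and 1 genes, without a test between the classes. The 9 probe sets of Malat1 and Neat1 had a median genotype difference of 0.56, with 7 positive. Within this class the median was 0.95 for Malat1 and 0.27 for Neat1, whose 2 probe sets differed by -0.02 (the brightest) and 0.56. The 11 of Meg3 had a median of 0.43, and the 4 of Gas5 a median of -0.18 with 2 positive. Without mutant array 1 the medians were 0.44 for Malat1 and Neat1 together, 0.64 for Malat1 alone, 0.23 for Meg3 and -0.21 for Gas5. For region the medians were -0.06 for Malat1 and Neat1, 0.33 for Meg3 and 0.05 for Gas5. Within each of the 6 mutant arrays, the excess of Malat1 over the control posterior mean was larger than that of Meg3, by 1.21 on average (SD 0.33, range 0.82 to 1.70). It was also larger in all 6 than the excess of Neat1 (mean 1.70, SD 0.67) and of Gas5 (mean 1.63, SD 0.72). The excess of Meg3 was larger than that of Gas5 in 4 of 6 mutant arrays (mean 0.42, SD 0.72). Without mutant array 1 the excess of Malat1 was larger by 1.17 than that of Meg3, by 1.46 than that of Neat1 and by 1.35 than that of Gas5, each in all 5 arrays, and the excess of Meg3 was larger than that of Gas5 by 0.18, in 3 of 5.

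**Figure D3:**
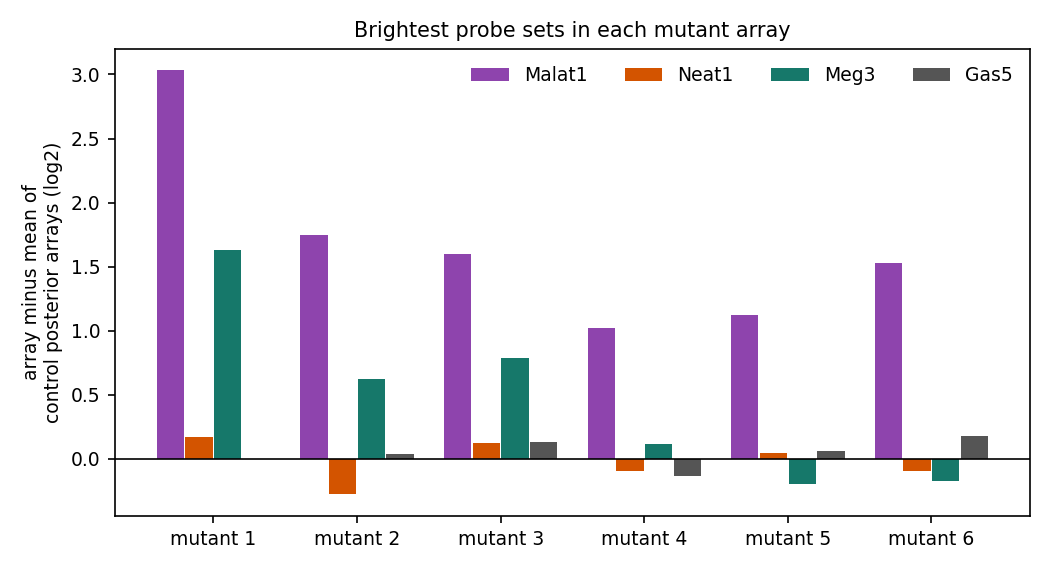
Bars show, for each of the 6 mutant arrays, the level (log2) of the brightest probe set of Malat1, Neat1, Meg3 and Gas5 minus its mean over the 6 control posterior arrays. Malat1 has the tallest bar in all 6 arrays, from 1.02 to 3.03, and Meg3 falls below 0 in mutant arrays 5 and 6.

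In the fit over all probe sets, a probe set was called at a limma adjusted p under 0.05. For genotype 10.7% of all 45037 probe sets were called, 6.44% higher and 4.30% lower in mutants, and 5.47% did not overlap between the groups. The share of calls that were higher was 60.0%, but 41.9% when each array was centred on its median and 46.5% after a second quantile normalization. For region 1.86% of probe sets were called and 4.48% did not overlap. Of the 24 probe sets, 2 of Malat1 did not overlap for genotype and 1 of Meg3 did not overlap for region. The genes were chosen with both contrasts in view, so nothing is read from these counts.

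Other genes with a place in the same biology were tested in the same fit, each by its brightest probe set. Of 134 such genes 17.9% were called for genotype, against 12.3% of all 18193 genes, and 3.73% for region, against 2.81%. The shares of all genes include dim genes, whereas many listed genes are bright. No share was taken over genes of like level, so signal level and list cannot be told apart, also for each list below. Genotype calls came to 24, and to 12 without control posterior array 5, 14 without control posterior array 6, and 6 with arrays 1 to 3 and 4 to 6 of each genotype as random blocks (called array sets below).

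Of 23 genes for speckle and SR proteins, the partners of Malat1 in the nucleus, 1 rose and 3 fell in mutants. That is 17.4% against 12.3% of all genes, of which 7.06% rose and 5.28% fell, and the median difference was -0.15 against 0.04 for all genes. With the array sets as random blocks 0 rose and 2 fell. Tra2a, a splicing regulator, averaged 9.52 ± 1.29 in mutant and 11.28 ± 0.20 in control posterior palate (SD, n = 6 each; difference -1.76, SE 0.40, adjusted p = 0.0092, limma), and the difference ranged from -2.85 to -0.66 over the alternative settings. Srsf10, another SR-type splicing factor, differed by -0.76 (adjusted p = 0.0009, limma) and Srsf3 by -0.52 (adjusted p = 0.0086, limma). Srrm2, a core scaffold of speckles, differed by 0.47 (adjusted p = 0.0266, limma). Tra2a and Srsf10 stayed called in all 29 alternative settings, Srsf3 lost its call only with the array sets as random blocks, and Srrm2 lost it in 7. For region 0 of 23 were called by limma and 2 had an unadjusted p under 0.05, with the smallest p for Srsf4 (difference -0.25, adjusted p = 0.136) and Son (-0.21, adjusted p = 0.153).

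Of 19 genes for paraspeckle proteins, which assemble on Neat1, 1 rose and 4 fell in mutants (26.3% against 12.3% of all genes), with a median difference of -0.13. With the array sets as random blocks 0 were called, with the 12 compared arrays alone 0 rose and 2 fell, and on arrays 4 to 6 the median was 0.0057. Sfpq, a core paraspeckle protein, averaged 11.10 ± 0.62 in mutant and 11.76 ± 0.06 in control posterior palate (SD, n = 6 each; difference -0.66, SE 0.20, adjusted p = 0.037, limma). The RNA-binding Matr3 differed by -0.40 and the 3' end processing factors Cpsf6 and Nudt21 by -0.33 and -0.29 (adjusted p = 0.0099, 0.0135 and 0.0229, limma), whereas Cpsf7 of the same processing complex rose by 0.27 (adjusted p = 0.0396, limma). Besides the random blocks, which ended all 5 calls, that of Sfpq was lost in 13 of 29 settings in all, that of Cpsf7 in 15, Nudt21 in 4, and Matr3 and Cpsf6 in 2 each. For region 0 of 19 were called by limma and 2 had an unadjusted p under 0.05, with the smallest p for Smarca4 (-0.29, adjusted p = 0.0636) and Nono (-0.18, adjusted p = 0.278). Of 8 genes beside Malat1 and Neat1 on the chromosome, 0 were called for genotype by limma (1 with an unadjusted p under 0.05) and 0 for region (4 with one). Ehbp1l1 differed by 0.65 for genotype (adjusted p = 0.0653, limma) and 0.75 for region (adjusted p = 0.0927, limma). Frmd8, which adjoins the pair, differed by 0.15 for genotype (adjusted p = 0.248, limma), and Ssh3 by -0.34 for region (adjusted p = 0.164, limma).

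Of 28 imprinted genes measured, the class to which Meg3 belongs, 7 rose and 1 fell in mutants (28.6% against 12.3% of all genes), and the median difference was 0.31 against 0.04 for all genes. With the array sets as random blocks 3 rose and 0 fell, while 4 rose without control posterior array 4, 5 or 6, and 12 without mutant array 2. Igf2r, which clears IGF2 from the cell surface, averaged 11.24 ± 0.49 in mutant and 10.18 ± 0.08 in control posterior palate (SD, n = 6 each; difference 1.06, SE 0.17, adjusted p = 0.0007, limma). Dlk1, a paternally expressed inhibitor of differentiation from the cluster of Meg3, averaged 12.22 ± 0.26 in mutant and 11.34 ± 0.18 in control posterior palate (difference 0.88, SE 0.14, adjusted p = 0.0007, limma). Dcn, the matrix proteoglycan decorin, rose by 0.88 (adjusted p = 0.0043, limma), and Asb4 fell to 8.43 ± 0.63 in mutant against 9.54 ± 0.12 in control posterior palate (difference -1.11, SE 0.24, adjusted p = 0.0067, limma). Igf2r and Dlk1 stayed called in all 29 settings, while Dcn lost its call on arrays 1 to 3 alone and Asb4 with the array sets as random blocks and on arrays 4 to 6 alone. Igf2, Peg3, Zim1 and Gnas were the other 4 that rose, and their calls were lost in 8, 2, 13 and 10 of 29 settings, the random blocks among them for each.

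In the cluster of Meg3, Dlk1 and Rian were called for region and Mirg was not. Of the 28 imprinted genes 4 were higher and 0 lower in control posterior than in control anterior palate (14.3% against 2.81% of all genes). With the replicate block, 3 were higher and 1 lower: Magel2 lost its call (adjusted p = 0.066, limma) and Dcn gained one (difference -0.62, adjusted p = 0.0412, limma, against 0.0863 without the block). Dlk1 averaged 11.34 ± 0.18 in control posterior and 10.41 ± 0.29 in control anterior palate (SD, n = 6 each; difference 0.93, SE 0.14, adjusted p = 0.0008, limma). Rian, a noncoding RNA of the Meg3 cluster, averaged 11.83 ± 0.13 in control posterior and 11.20 ± 0.16 in control anterior palate (difference 0.63, SE 0.14, adjusted p = 0.0207, limma), with no overlap between the regions. Mirg, the third noncoding RNA there, read 7.23 ± 0.16 in control posterior and 6.80 ± 0.18 in control anterior palate (difference 0.43, SE 0.20, adjusted p = 0.299, limma); it was named after its values were seen. Magel2 and Ndn, neighbours of each other in another imprinted cluster, were higher by 0.97 (adjusted p = 0.0487, limma) and 0.54 (adjusted p = 0.0276, limma). Calls of all 4 were lost with 3 arrays per group, and leaving out 1 array ended that of Magel2 in 14, Ndn in 6 and Rian in 4 of 18 cases. Skeletal muscle markers moved with these regional values: 10 of 10 were called higher in control posterior palate, and their mean level lay between 9.61 and 11.05 on posterior and between 5.58 and 8.09 on anterior control arrays. Within the sets of 3 arrays, Meg3 had r = 0.253 with the muscle mean over the 12 control arrays. Over the 6 mutant arrays it was 0.694, and mutant array 1 had the highest muscle mean of all arrays, at 12.79. Both r values are given as a description. Since the muscle level did not overlap between the regions, it and region cannot be told apart.

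Other noncoding RNAs and the genes grouped with Gas5 were called at rates near that of all genes (12.3%) for genotype: 11.1% of other long noncoding RNAs, 13.3% of hosts of small nucleolar RNAs and 10.5% of messages with a 5' TOP tract. Of 27 other long noncoding RNAs 2 rose and 1 fell in mutants. Xist was not called (difference 1.44, SE 1.45, adjusted p = 0.577, limma) and varied widely within every group. It read 5.34 to 11.65 in mutant posterior, 5.53 to 11.28 in control posterior and 4.97 to 11.26 in control anterior palate. The part of sex, which was not determined, in any difference was not tested. Crnde averaged 5.54 ± 0.22 in mutant and 6.38 ± 0.10 in control posterior palate (SD, n = 6 each; difference -0.84, SE 0.14, adjusted p = 0.0010, limma), without overlap. Mir22hg, the host of a microRNA, and Dleu2, the host of another, rose by 0.56 (adjusted p = 0.0352, limma) and 0.36 (adjusted p = 0.0227, limma), and these calls were lost in 14 and 7 of 29 settings. For region Rian was higher and Six3os1, transcribed opposite the homeobox gene Six3, was lower (difference -1.24, adjusted p = 0.0147, limma), with levels of 3.67 ± 0.28 in control posterior and 4.91 ± 0.77 in control anterior palate. Of 15 other hosts of small nucleolar RNAs, 0 rose and 2 fell in mutants: Snhg6 differed by -0.60 (adjusted p = 0.0110, limma) and Snhg4 by -0.29 (adjusted p = 0.0352, limma). Of 19 messages with a 5' TOP tract, 2 rose and 0 fell, the elongation factor Eef2 by 0.23 (adjusted p = 0.0280, limma) and the poly(A)-binding Pabpc1 by 0.19 (adjusted p = 0.0473, limma). Neither was called when arrays were centred on their medians, where 0 of the 19 rose and 2 fell. With the array sets as random blocks the calls of Snhg6, Snhg4, Eef2 and Pabpc1 were all lost. The Snhg4 call was lost without each of 8 single arrays, that of Pabpc1 without each of 14 and that of Eef2 without each of 3. For region 0 of 15 hosts and 0 of 19 TOP messages were called by limma, and 0 of either had an unadjusted p under 0.05.

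The arrays also differed in 18S ribosomal RNA, read by 3 control probe sets. The 18S level averaged 13.89 ± 0.27 on mutant posterior arrays, 12.89 ± 0.60 on posterior control arrays and 13.15 ± 0.36 on anterior control arrays (SD, n = 6 each). Mutant minus control posterior was 1.00 with no overlap, from 13.57 to 14.25 against 11.82 to 13.41 (p = 0.0022, exact permutation test, 2-sided, the smallest p it can give), and control posterior minus control anterior was -0.26 (p = 0.405, exact permutation test). This measure was added after the data were seen, as were 56 relations between the 4 RNAs and 7 array measures. Arrays 1 to 3 and 4 to 6 fall into separate clusters on several of these measures (18S on posterior control arrays read 12.88 or less on arrays 1 to 3 and 13.24 or more on arrays 4 to 6). The relations are therefore given as r over deviations from the means of the sets of 3 arrays, unless stated otherwise, as a description without a test.

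Within the sets of 3, Malat1 followed 18S in the 12 control arrays at r = 0.764, and in the 6 mutant arrays at r = 0.197. In the mutant arrays, which include array 1, Malat1 had r = 0.791 with the Gapdh 3' minus 5' difference. It had -0.838 there with the labelling spike-ins and -0.915 with epithelial markers. In the control arrays the 3 values were -0.662, 0.427 and 0.388. Gas5 ran against 18S at r = -0.840 in the 12 control arrays, and had r = 0.350 in the 6 mutant arrays. With the Gapdh difference Gas5 had r = 0.860 in the control and -0.464 in the mutant arrays. The part of ribosomal RNA and of the other array measures in the Malat1 difference between genotypes was not tested. Meg3 followed the labelling spike-ins in the 12 control arrays, at r = 0.908, and the hybridisation spike-ins, bacterial transcripts added after labelling, at r = 0.758, while in the 6 mutant arrays the values were -0.646 and 0.239. With the Gapdh difference and with epithelial markers, Meg3 had r = 0.703 and -0.974 in the mutant arrays. In the control arrays these were -0.318 and -0.056. The relations named here are a selection, and those in the mutant arrays include array 1. Over deviations from the mean of the mutant group, Malat1 had r = -0.814 with epithelial markers, and 0.134 without mutant arrays 1 and 2. The Meg3 values were -0.695 and 0.182. With the Gapdh difference they were 0.874 and 0.611 for Malat1, and 0.927 and 0.987 for Meg3. Meg3 and Malat1 deviations from the group means correlated with each other at r = 0.606 over 18 arrays and at 0.329 without mutant array 1.

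**Figure D4:**
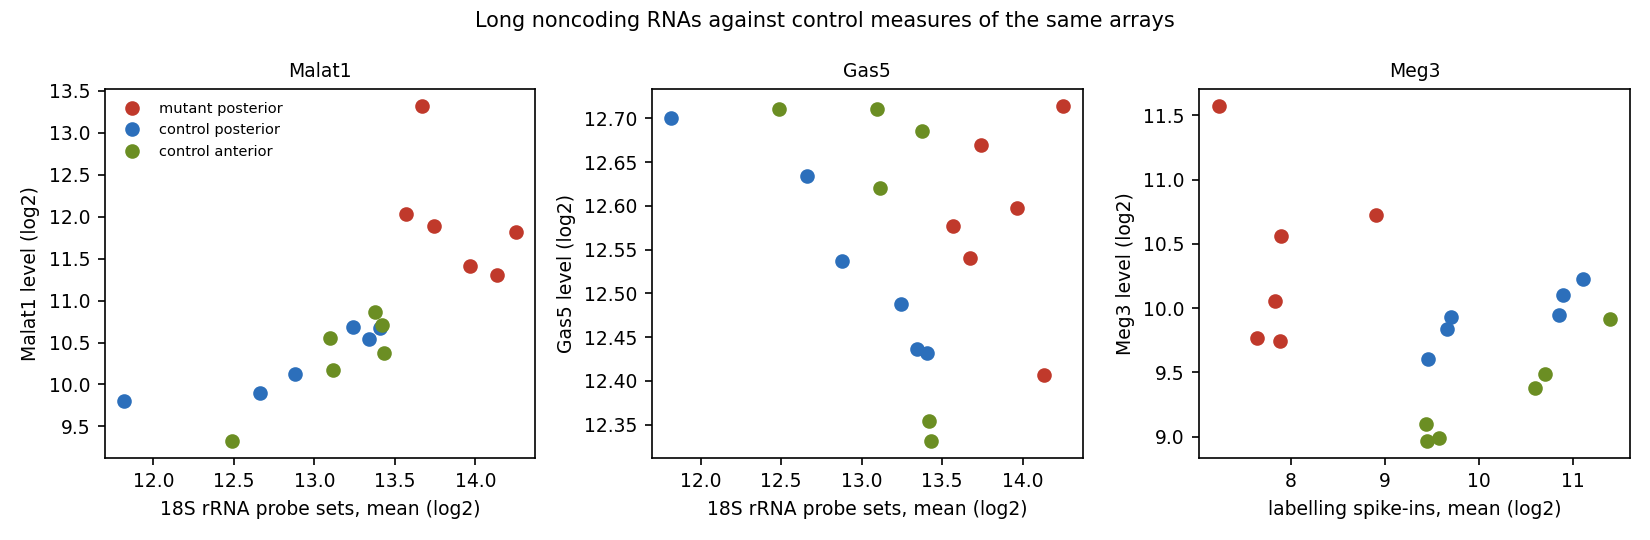
Level (log2) of Malat1 and Gas5 against the mean level of the 18S ribosomal RNA probe sets, and of Meg3 against the mean level of the labelling spike-ins, with 1 point per array coloured by group. The mutant arrays lie at 13.57 or more of 18S, posterior control arrays 1 to 3 at 12.88 or less and posterior control arrays 4 to 6 at 13.24 to 13.41, and the mutant arrays lie at 8.91 or less of labelling spike-ins.

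Genes with the most similar pattern were sought among about 9844 genes with a mean level of at least 7, by the correlation of deviations from group means over 18 arrays. For Malat1 these were Zc3h15 (r = 0.889), Xrn2 (0.879), a nuclear exonuclease, and Suz12 (0.867), a subunit of a Polycomb complex. For Meg3 they were Nme2 (0.917), Eif2s2 (0.914) and Atg4a (0.909), and for Neat1 Tyk2 (0.739), Rps4l (0.721) and Rftn1 (0.695). For Gas5 they were Six5 (0.883), H2-DMa (0.865) and Snhg12 (0.862), itself a host of small nucleolar RNAs. None of these 12 genes was called for genotype or region by limma: the smallest adjusted p was 0.0692, for Eif2s2. The points share arrays and their technical variation, so the correlations describe these arrays only. They include mutant array 1 and the split into arrays 1 to 3 and 4 to 6.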

How the data were processed

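RNA of whole palate was hybridised to 18 1-colour Affymetrix mouse arrays with 45101 probe sets, grouped by sample title. The deposited log2 values are RMA values made by the authors, per the submitters' processing notes (no version named). RMA corrects background, quantile-normalizes the arrays to each other and summarises the probes of each set. It thereby removes a change shared by most genes. Neither scanner files nor detection calls were used here. The number of arrays limits the precision.

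Probe sets were named from the platform annotation of 2016: of 45037 that are no controls, 34945 had 1 symbol, 932 had several, and 9160 were unnamed here. Of 18193 genes 18032 matched a RefSeq table by gene number. Besides 64 control probe sets, which stayed untested, 45037 were fitted together with limma 3.58.1 in R 4.3.3 (lmFit and eBayes, 2-sided, 15 residual degrees of freedom, no covariate, Benjamini-Hochberg over all). The fit was tested on simulated data. A gene outside the 5 is represented by its brightest probe set.

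The 5 genes, the gene lists and the rule for names were chosen with earlier results of these data known. The rule named every probe set of the 5 genes, from each list up to 4 called genes with the largest difference (in lists without a call, the 2 of smallest p), and the 3 genes most like each of the 5. List genes without a probe set of their own symbol alone were not analysed here. Differences of the 5 genes carry no test because the choice used measured values. Array measures were compared by exact permutation of 6 against 6 arrays, with adjustment over 28 tests.

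Equal replicate numbers of control posterior and control anterior arrays had deviations from group means that correlated at 0.103 to 0.364. For posterior arrays 1, 2 and 4 an anterior array of another number correlated better, and the labels name no pairs, so pairing remains unknown. The main fit left these arrays unpaired. Replicate number entered only in an alternative, the replicate block, for all 3 groups. Between mutant and control posterior arrays the values ran from -0.217 to 0.085 and the numbers did not pair them. Alternatives were another scaling, a filter on dim probe sets, 1 probe set per gene, other variance models, array weights, replicate blocks, array sets, the compared groups alone and leaving out each array. Random blocks used statmod 1.5.0, permutations scipy 1.17.1 in Python 3.11.15, and figures matplotlib 3.10.9.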

Additional observations from a re-analysis of the deposited data

Results flagged for a closer look

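In each of 72 groups of 6 arrays, 1 for each probe set and group, the highest or lowest array was set against the others by its gap relative to the range. The limit is one that chance alone passes in about 1 in 20 single groups. A far array was found in 8 groups, and 6 of the 8 were mutant array 1. Probe sets of a gene share arrays and move together, so the groups are not independent and the count has no chance rate. In that array 4 Malat1 probe sets stood far above the other mutant arrays: 1418189_s_at at 13.32, 1418188_a_at at 12.28, 1452378_at at 8.97 and 1429060_at at 7.66. The other 5 mutant arrays reached at most 12.03, 10.81, 7.23 and 6.91 for these probe sets in the same order. Meg3 stood out in the same array with 1428764_at at 7.91 and 1436057_at at 6.29, where the other mutant arrays reached 6.55 and 5.88. Control posterior array 3 was far below the others of its group for Malat1 1429060_at, at 5.71 against 6.45 or more. Control anterior array 4 was far above the others of its group for Meg3 1436713_s_at, at 8.12 against 7.61 or less. Mutant array 1 also had the lowest labelling spike-ins of all 18 arrays, at 7.23, and the part of this in its values was not tested.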

How the results depend on the processing

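Genotype calls numbered 4835 of 45037 probe sets, and 2449 with 1 probe set per gene, 2978 with the 12 compared arrays alone, 1188 with arrays 1 to 3 and 4 to 6 of each genotype as random blocks, and 3104 to 5296 without 1 array. Region calls numbered 837, and 3118 with the compared arrays alone, 4936 with array weights, 1651 with the random blocks, 167 on arrays 1 to 3, 265 on arrays 4 to 6 and 428 to 1632 without 1 array. The lowest region count came without control posterior array 6 and the highest without mutant array 1. The share of genotype calls that were higher was 60.0% as deposited, 41.9% with arrays centred on their medians, 46.5% after a second quantile normalization, 48.4% with the random blocks and 48.7% on arrays 4 to 6. For region it was 46.1%, and 71.9% on arrays 1 to 3.

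Calls among the 134 listed genes numbered 24 for genotype, and 15 with the compared arrays alone, 6 with the random blocks and 12 to 28 without 1 array. For region they numbered 5, and 14 with the compared arrays alone, 17 with array weights, 8 with the random blocks, 2 on arrays 1 to 3, 0 on arrays 4 to 6 and 2 to 8 without 1 array. The cause was not tested.

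The Malat1 genotype difference of 1.68 was 2.47 on arrays 1 to 3, 0.88 on arrays 4 to 6 and 0.81 as the mean of its probe sets, and its region difference of -0.05 was -0.59 and 0.50 on the same sets. For Neat1 the mean of both probe sets was 0.27 for genotype and 0.078 for region, against -0.02 and 0.21 for the brightest. The Meg3 genotype difference of 0.47 was 1.17 on arrays 1 to 3 and -0.23 on arrays 4 to 6. For Gas5 the mean of the probe sets was -0.18 for genotype, against 0.05 for the brightest. With the replicate block, region calls numbered 733 and genotype calls 4790. Signal near background limits the dim probe sets, since no detection calls were used.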

Other observations

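Probe sets that list 2 symbols were left out of the counts above. Probe set 1448194_a_at, listed for Mir675 and H19, read 14.25 ± 0.05 in mutant posterior, 14.11 ± 0.05 in control posterior and 14.04 ± 0.07 in control anterior palate (SD, n = 6 each). Mutant minus control posterior was 0.13 (SE 0.05) and control posterior minus control anterior 0.08 (SE 0.05), with overlap in both. Its values lie near the top of the array's range. Probe set 1455904_at, listed for Snord47 and Gas5, read 7.21 ± 0.45 in mutant posterior, 7.68 ± 0.33 in control posterior and 7.53 ± 0.20 in control anterior palate (SD, n = 6 each). Its mutant minus control posterior difference was -0.47 (SE 0.18), close in size to those of the dimmer Gas5 probe sets 1436222_at (-0.49) and 1424843_a_at (-0.41).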
